A study of Mus musculus with 15 samples.

Results

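Tuft cell genes were followed across all libraries of a study of the adult mouse ileum: the 9 genes Trpm5, Dclk1, Pou2f3, Il25, Gfi1b, Avil, Sh2d6, Ptgs1 and Alox5ap. They were taken by name as genes of the tuft cell, and all 9 were found among the 37620 gene identifiers of the count tables. The study asked which genes depend on Rfx6, a transcription factor of the enteroendocrine lineage, in the adult ileum. Ribosome-depleted libraries of ileal RNA were sequenced from 15 mice, 1 library per mouse. They form 2 cohorts that differ in the time since tamoxifen, 8 days or 3 months. The first held 3 controls (Rfx6f/f) and 4 animals labelled mutant (Rfx6f/f Vilin-CreERT2). The second held 4 controls, of which libraries 1 and 4 were Rfx6f/f and libraries 2 and 3 were Rfx6f/+, and 4 animals labelled mutant (Rfx6f/f Vilin-CreERT2).

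All 15 animals carried at least 1 floxed Rfx6 allele (f, an allele that Cre recombinase can delete) and were adults given tamoxifen by gavage. The labelled mutants carried in addition a tamoxifen-activated Cre under the villin promoter (spelled Vilin in the labels), which is active in the intestinal epithelium. The controls had no Cre, so the Cre itself and the deletion cannot be told apart. Sex and exact age are not in the labels. RNA was extracted by either of 2 methods, and the sources used here do not say which animal had which.

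Tuft cells are rare chemosensory cells of the gut epithelium. They sense microbial and parasite products with a signalling cascade related to that of taste cells, which ends in the cation channel Trpm5. On activation they release the cytokine Il25 together with lipid mediators such as leukotrienes and prostaglandins, which act on type 2 innate lymphoid cells. These cells answer with Il13, which acts on crypt stem cells and raises the number of tuft and goblet cells. In whole ileal tissue, fewer tuft cells and less RNA per tuft cell cannot be told apart.

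Each library held 26078462 to 54468586 counts. Values are counts per 1000000 (CPM) scaled with TMM, edgeR's correction for library composition, within each cohort, and 3 counts correspond to 0.0551 to 0.115 CPM. Each library is 1 animal, so the spread between replicates is the spread between animals. The counts of Rfx6 did not fall with the mutant label. At 3 months they were 1.48 to 1.77 CPM in the controls and 2.31 to 3.40 CPM in the labelled mutants (log2 fold change 0.72, SE 0.17, adjusted p = 0.0347, edgeR quasi-likelihood test, higher in 4 of 4), and at 8 days the groups overlapped (0.19, SE 0.18, adjusted p = 0.867). A count over the whole gene includes exons outside a deleted part, and the deleted exons are not given in the sources used here, so this count does not check the labels. Gip, the gene of an incretin hormone, had 42 to 470 counts in each of the 7 controls and 0 to 2 counts in each of the 8 labelled mutants. Gip was picked after values were seen, from a list of 10 enteroendocrine genes. At 3 months the edgeR quasi-likelihood test called 4 of the 10 higher and 4 lower, beside 4.96% and 4.32% of all genes tested. At 8 days it called 0 higher and 2 lower, beside 0.0915% of all genes. The list summed to 202.1 to 327.3 CPM in the 3-month controls and 327 to 413.3 CPM in the labelled mutants. At 8 days the sums were 176.5 to 226.6 and 110 to 170 CPM. The groups are called by their labels throughout.

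The promoters of 6 of the 9 genes were in the RefSeq table used here (assembly GRCm38.p6, 250 bases before to 50 bases after the annotated start). Pou2f3 belongs to the POU family of transcription factors, which bind the octamer ATGCAAAT, so the octamer and its shorter parts ATGCAAA and GCAAAT were searched for on both strands. Any full octamer also contains both parts. None of the 7 promoter entries of these 6 genes (Dclk1 has 2) held the full octamer, which was found in 1.74% of 32851 mouse promoters of the same length. Parts of it were found in 2 genes. The promoter of the actin-binding protein Avil held 2 matches to ATGCAAA, 1 on each strand (the part is in 4.63% of all promoters), and 2 to GCAAAT (in 10.5%). The promoter of the transcriptional repressor Gfi1b held 1 match to GCAAAT. These 2 promoters are shown with the matches in capitals. Both genes followed the common pattern described below, as did Dclk1, Sh2d6 and Trpm5, whose promoters held no match. Avil is at chr10:127000459-127000758 on the plus strand and Gfi1b at chr2:28621933-28622232 on the minus strand, and each is written 5′ to 3′ along its gene.
Avil: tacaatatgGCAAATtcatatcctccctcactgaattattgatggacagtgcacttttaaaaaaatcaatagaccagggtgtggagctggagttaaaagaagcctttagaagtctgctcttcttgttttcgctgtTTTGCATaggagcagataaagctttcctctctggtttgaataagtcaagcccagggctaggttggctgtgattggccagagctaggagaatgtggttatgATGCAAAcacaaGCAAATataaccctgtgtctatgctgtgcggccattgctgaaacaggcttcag
Gfi1b: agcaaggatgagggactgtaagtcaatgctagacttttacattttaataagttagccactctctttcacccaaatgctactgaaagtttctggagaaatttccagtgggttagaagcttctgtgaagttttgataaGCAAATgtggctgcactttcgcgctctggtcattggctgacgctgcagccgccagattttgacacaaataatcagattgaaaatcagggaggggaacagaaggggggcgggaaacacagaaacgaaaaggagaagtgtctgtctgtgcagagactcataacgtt

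Sh2d6, which followed the common pattern over one of the widest ranges at 3 months, and Ptgs1, which departed from it, are also shown. Neither promoter held these letters in this window. Sh2d6 is at chr6:72519987-72520286 on the minus strand and Ptgs1 at chr2:36230176-36230475 on the plus strand. A match or its absence is a description of the sequence only and was tested against no other data.
Sh2d6: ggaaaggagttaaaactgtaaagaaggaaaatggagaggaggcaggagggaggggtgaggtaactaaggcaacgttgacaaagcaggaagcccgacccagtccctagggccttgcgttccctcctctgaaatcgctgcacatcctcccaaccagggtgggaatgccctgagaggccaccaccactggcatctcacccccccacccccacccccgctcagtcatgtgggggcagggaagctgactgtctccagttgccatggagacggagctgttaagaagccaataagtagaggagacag
Ptgs1: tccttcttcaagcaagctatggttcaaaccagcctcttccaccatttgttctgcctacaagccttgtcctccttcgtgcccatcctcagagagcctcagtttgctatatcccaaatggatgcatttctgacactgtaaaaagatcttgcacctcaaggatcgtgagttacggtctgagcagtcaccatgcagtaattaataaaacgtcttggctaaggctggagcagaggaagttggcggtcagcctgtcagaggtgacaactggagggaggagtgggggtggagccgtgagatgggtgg

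Trpm5, Dclk1, Avil and Sh2d6 were even across the 7 animals of the 8-day cohort and uneven across the 8 animals of the 3-month cohort. Trpm5, the calcium-activated cation channel at the end of the taste-like cascade, stood at 22.8, 21.9 and 28.9 CPM in the 8-day controls and at 29.9, 27.6, 21.7 and 20.7 CPM in the 8-day labelled mutants. At 3 months it had 5.74, 11.3, 5.67 and 2.81 CPM in controls 1 to 4 and at 3.40, 2.24, 14.3 and 18.6 CPM in labelled mutants 1 to 4. The 8-day groups overlapped within a 1.44-fold range. The 3-month groups overlapped as well, but labelled mutants 3 and 4 were far above labelled mutants 1 and 2, an 8.28-fold range inside 1 group, and control 2 was the highest control, in a 4.03-fold range. The label effect on the log2 scale was 0.03 (SE 0.15, adjusted p = 0.987) at 8 days and 0.59 (SE 0.66, adjusted p = 0.587) at 3 months, by the edgeR quasi-likelihood test in both.

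Dclk1, a microtubule-associated kinase and the most used tuft cell marker of the mouse gut, stood at 29.3 to 36.9 CPM in the 8-day controls and 29.1 to 34.6 CPM in the 8-day labelled mutants. The 3-month controls stood at 9.70, 17.1, 8.03 and 8.30 CPM and the labelled mutants at 10.3, 8.08, 22.3 and 23.5 CPM. Control 2 and labelled mutants 3 and 4 were again the 3 highest libraries, and the lowest of the labelled mutants lay at the level of controls 3 and 4. The label effect at 3 months was 0.57 on the log2 scale (SE 0.38, adjusted p = 0.350, edgeR quasi-likelihood test). Neurons also express Dclk1, so a part of its counts need not come from tuft cells. The enteric neuron list (8 genes) summed to 39.7 to 43.3 CPM in the 3-month controls and 43.9 to 64.96 CPM in the labelled mutants, and its part in the Dclk1 values was not tested.

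Avil (advillin), an actin-binding protein of the villin family, was at 13.5 to 18.8 CPM in the 8-day controls and 14.1 to 18.2 CPM in the 8-day labelled mutants. Its 3-month values were 3.998, 9.64, 4.58 and 4.47 CPM in the controls and 8.09, 3.69, 13.6 and 15.8 CPM in the labelled mutants. Control 2 was above the other controls, which lay close together, and labelled mutant 2 was the lowest of all 8 libraries. The label effect at 3 months was 0.86 on the log2 scale (SE 0.45, adjusted p = 0.234, edgeR quasi-likelihood test).

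Sh2d6, an SH2-domain protein of the tuft cell, had the widest spread of log2 CPM of the 9 genes in the 3-month labelled mutants. It was 5.23 to 7.87 CPM in the 8-day controls and 6.49 to 7.69 CPM in the 8-day labelled mutants. The 3-month controls stood at 0.487, 2.21, 0.349 and 0.598 CPM, and the labelled mutants at 0.867, 0.330, 4.16 and 4.84 CPM. Labelled mutant 2 was the lowest library and labelled mutant 4 the highest, 14.7-fold apart inside 1 group. The label effect was 1.45 on the log2 scale (SE 0.84, adjusted p = 0.281, edgeR quasi-likelihood test), the highest estimate among these genes and not past the threshold.

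The transcription factors of the lineage were low, with the same 3 highest libraries at 3 months. Pou2f3, the master regulator without which tuft cells do not form, stood at 1.81 to 2.48 CPM in the 8-day controls and 1.92 to 2.86 CPM in the 8-day labelled mutants. The values of 3 months were 0.417, 0.890, 0.194 and 0.352 CPM in the controls and 0.321, 0.132, 1.28 and 2.28 CPM in the labelled mutants, from 12, 29, 5 and 10 counts and from 10, 4, 48 and 64 counts. The 17.3-fold range among the labelled mutants therefore has a lower end of 4 counts. The label effect at 3 months was 1.07 on the log2 scale (SE 0.78, adjusted p = 0.386, edgeR quasi-likelihood test).

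Gfi1b, a zinc-finger repressor of tuft cells that is also used in the blood lineages, had 12 to 34 counts in each 8-day library. The 3-month controls had 1, 11, 2 and 3 counts and the labelled mutants 2, 2, 12 and 11. All but 3 of the 8 libraries were thus at or below the floor of 3 counts, and those above it were again control 2 and labelled mutants 3 and 4. Gfi1b failed the filter on low counts at 3 months. At 8 days its log2 fold change was 0.26 (SE 0.28, adjusted p = 0.891, edgeR quasi-likelihood test).

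The output genes split into those that followed the pattern and one that did not. Il25, the cytokine by which tuft cells reach type 2 innate lymphoid cells, had 3 to 14 counts in each 8-day library. In the 3-month cohort it had 0, 2, 0 and 0 counts in the controls and 0, 0, 2 and 1 counts in the labelled mutants. It was tested in no comparison, and no difference between groups was detectable at this depth. Alox5ap, the activating protein of leukotriene synthesis, which macrophages and other leukocytes also express, stood at 2.57 to 4.59 CPM at 8 days. The 3-month values were 2.68, 3.50, 2.06 and 2.18 CPM in the controls and 2.09, 2.605, 4.05 and 5.23 CPM in the labelled mutants. The same 3 libraries were the highest, over a narrower range than for Trpm5 or Sh2d6. The label effect at 3 months was 0.42 on the log2 scale (SE 0.30, adjusted p = 0.380, edgeR quasi-likelihood test).

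Ptgs1 (cyclooxygenase 1), which makes the precursor of prostaglandins in tuft cells and also in platelets, macrophages and other cells, was the one gene of the 9 to pass the test. At 8 days it stood at 50.4, 50.8 and 48.3 CPM in the controls and at 56.5, 49.1, 50.4 and 43.6 CPM in the labelled mutants. The 3-month controls stood at 38.9, 41.3, 45.2 and 39.1 CPM and the labelled mutants at 64.4, 64.97, 81.9 and 56.2 CPM. Every labelled mutant of 3 months was above every control, an order that 9.70% of all genes tested had, and labelled mutants 1 and 2 stood above labelled mutant 4, unlike in the other 8 genes. The means were 41.1 ± 2.95 CPM (SD, n = 4) and 66.9 ± 10.8 CPM (SD, n = 4). The label effect on the log2 scale was 0.70 (SE 0.11, adjusted p = 0.0109, edgeR quasi-likelihood test, higher in 4 of 4). Leaving out any 1 library kept the call, with adjusted p from 0.0111 to 0.0417 by the same edgeR test. With the Rfx6f/f controls alone the value was 0.78 and the call was lost (adjusted p = 0.119, edgeR quasi-likelihood test, 2 controls). It was called in 15 of 16 alternative settings, with adjusted p from 1.4e-06 (DESeq2) to 0.119.

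**Figure D1:**
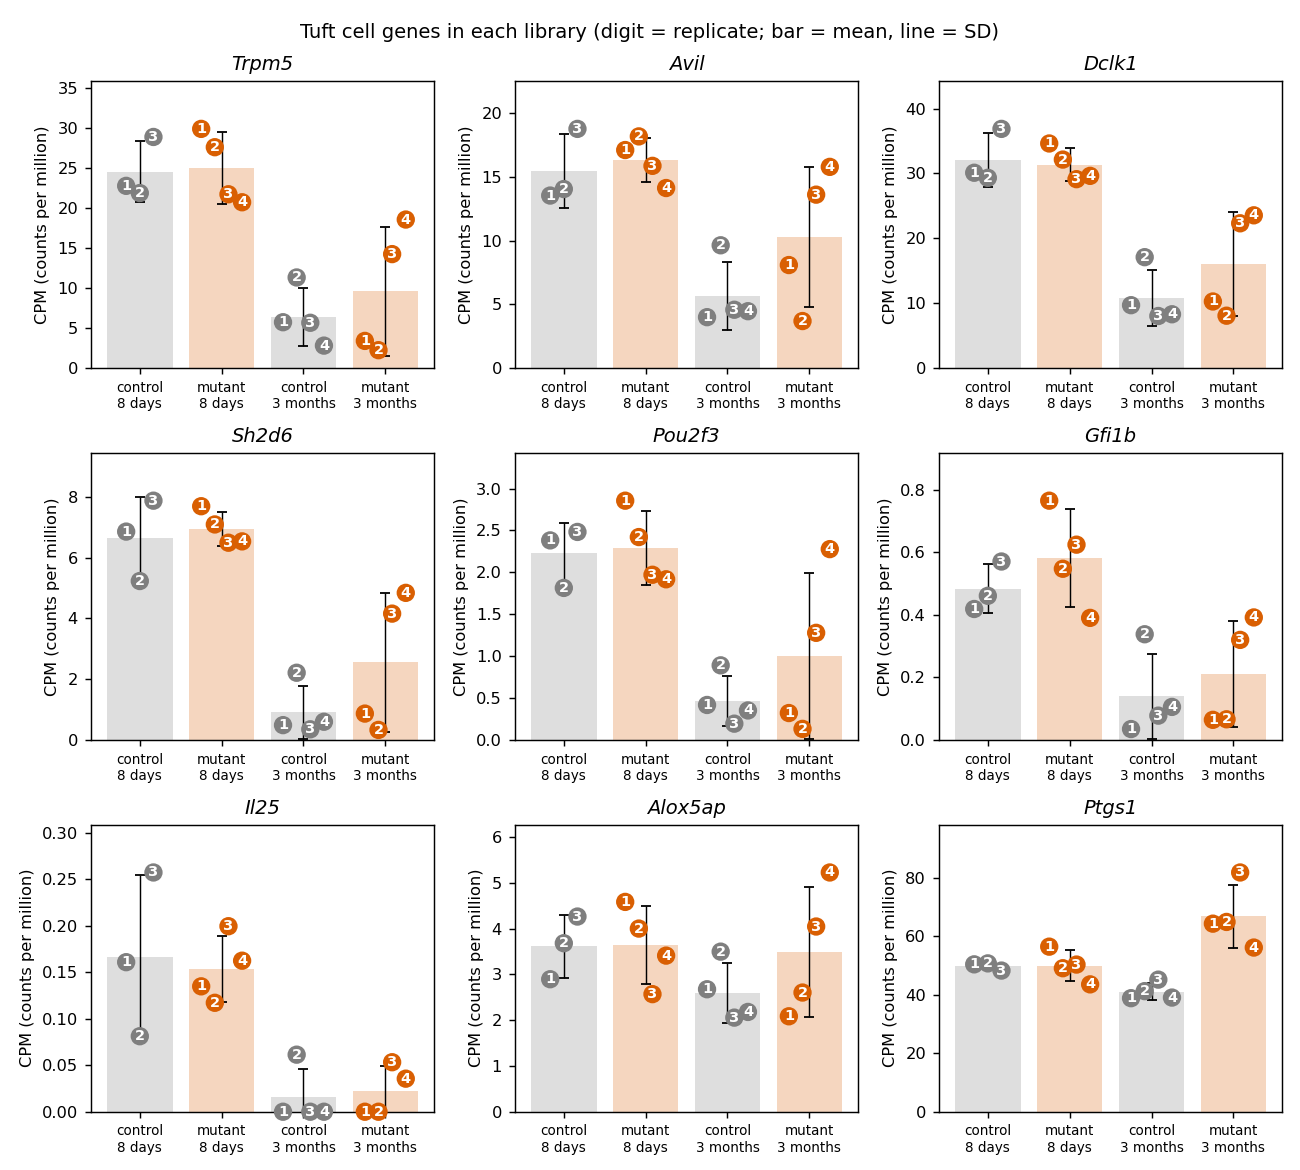
CPM (scaled counts per 1000000) of the 9 genes in each library, with digits for the replicate, bars for the group mean and lines for the SD. At 8 days the groups overlap for every gene, while at 3 months control 2 and labelled mutants 3 and 4 are the 3 highest libraries for every gene but Ptgs1, whose labelled mutants (56.2 to 81.9 CPM) all lie above the controls (38.9 to 45.2 CPM).

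Counted over the 9 genes, 0 of 8 tested were called at 8 days by the edgeR quasi-likelihood test, against 0.0915% of all 17493 genes tested. None had an unadjusted p under 0.05, and DESeq2 and limma-voom called 0 as well. At 3 months 1 of 7 tested was called, Ptgs1, against 9.28% of all 17085 genes tested, so that a single call is close to the background. The median log2 fold change of the tested members was 0.04 at 8 days and 0.70 at 3 months, beside -0.0020 and 0.0077 over all genes tested, and it was positive for 7 of 8 and for 7 of 7. In the 6 tested genes other than Ptgs1 the estimates at 3 months ran from 0.42 to 1.45 with adjusted p from 0.234 to 0.587 (edgeR quasi-likelihood test). Their size moved with single libraries: without labelled mutant 4 they ran from 0.068 (Trpm5) to 0.97 (Sh2d6), and without control 2 from 0.60 (Alox5ap) to 2.40 (Sh2d6). These 6 are not independent of each other, since they rise and fall together across libraries.

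The effect of the label was compared between the cohorts in a fit of all 15 libraries. The difference (3 months minus 8 days) was positive for 8 of 8 tested genes and called for 0 of 8 by the edgeR quasi-likelihood test, against 0.785% of 17959 genes. For Ptgs1 it was 0.68 on the log2 scale (SE 0.15, adjusted p = 0.0514), short of the threshold. It was the only one of the 8 with an unadjusted p under 0.05, beside 16.6% of all genes. DESeq2 called it (0.70, adjusted p = 0.00181) and limma-voom did not (0.68, adjusted p = 0.0603). For the other 7 genes the differences ran from 0.25 to 1.37 with adjusted p from 0.491 to 0.915 (edgeR quasi-likelihood test). Time after tamoxifen and cohort cannot be told apart in this design.

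The 2 control genotypes of 3 months were also compared, since control 2 (Rfx6f/+) was the high control. The estimates, Rfx6f/+ over Rfx6f/f, were positive for 8 of 8 tested genes, from 0.15 to 1.58 on the log2 scale. The edgeR quasi-likelihood test called 0 of 8 (adjusted p from 0.818 to 0.945), against 0% of 17780 genes, of which 1220 had an unadjusted p under 0.05 and DESeq2 called 48. DESeq2 and limma-voom called 0 members too, and none had an unadjusted p under 0.05. Control 3, of the same genotype as control 2, had 5.67 CPM of Trpm5 and 0.349 CPM of Sh2d6, below control 1 for Trpm5 and below both Rfx6f/f controls for Sh2d6. Without control 2 the estimate was negative for 4 of the 8 (-0.62 for Sh2d6, -0.96 for Pou2f3, -0.16 for Dclk1 and -0.23 for Alox5ap) and positive for the other 4 (0.41 for Trpm5, 0.15 for Gfi1b, 0.12 for Avil and 0.22 for Ptgs1), with 1 library in the Rfx6f/+ group.

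**Figure D2:**
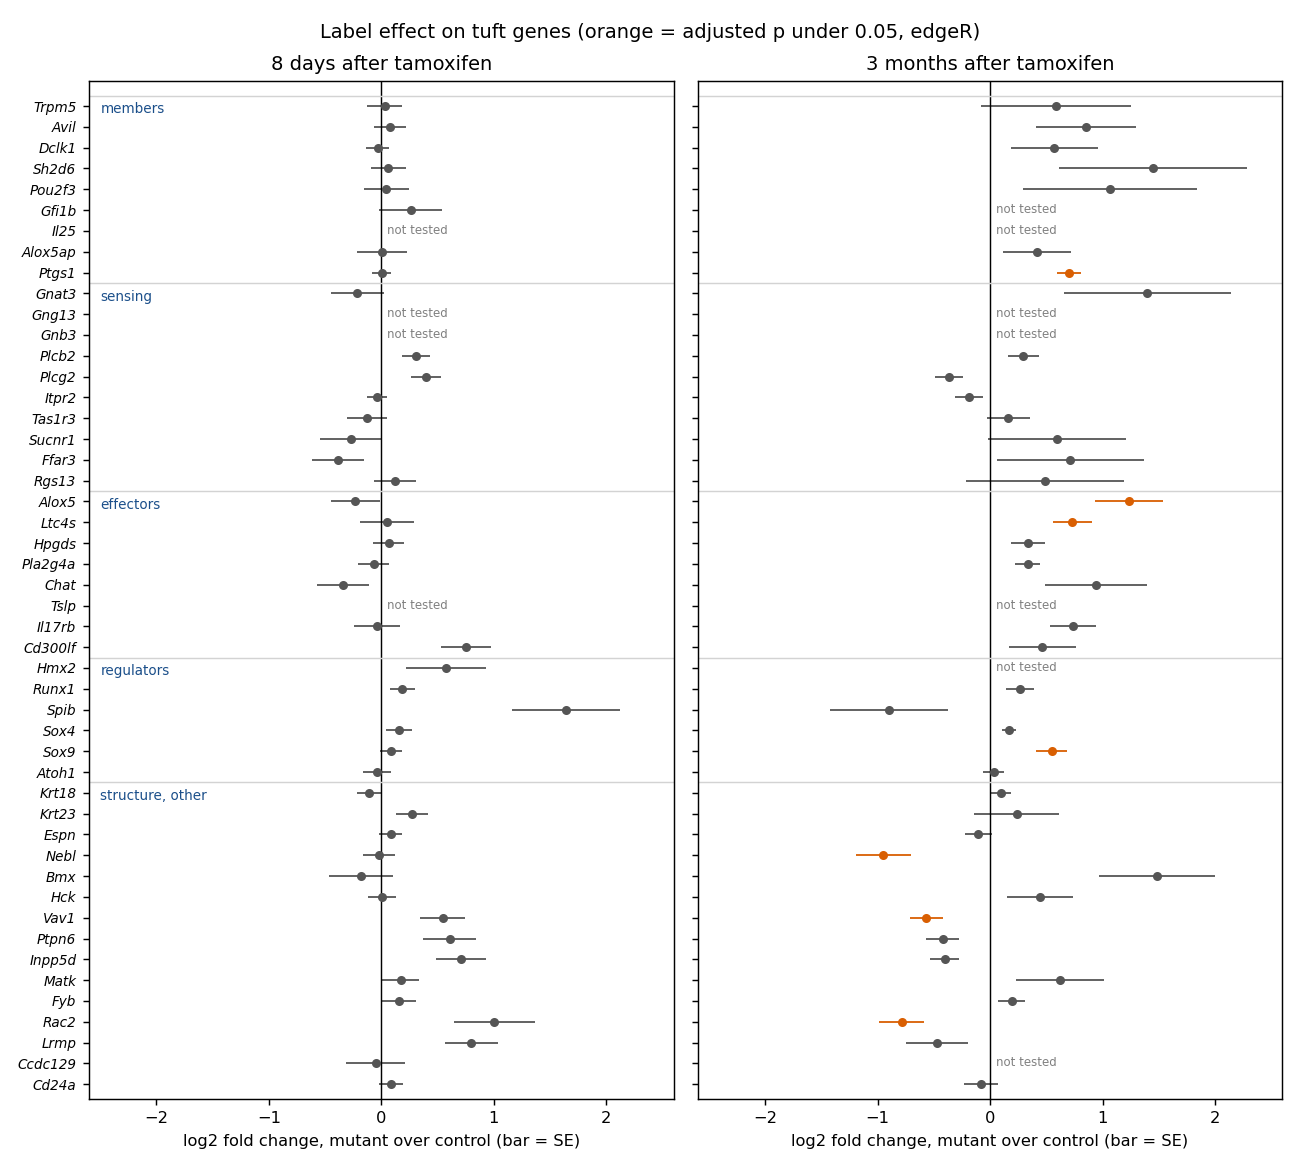
Log2 fold change of the label (mutant over control) with its SE for the 9 genes and the other tuft genes, at 8 days (left) and 3 months (right), with genes at an adjusted p under 0.05 in orange. Bars are narrow at 8 days and wide at 3 months for Trpm5, Dclk1, Pou2f3, Avil and Sh2d6 (SE 0.16 and 0.84 for Sh2d6), less so for Alox5ap (0.22 and 0.30), and narrow at both for Ptgs1 (0.09 and 0.11).

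The highest libraries of 3 months were shared by nearly all members, while the order of the others differed between genes. Control 2 was the highest of the 4 controls for 8 of the 9 genes, and labelled mutants 3 and 4 were both above labelled mutants 1 and 2 for 8 of the 9, Ptgs1 being the exception in each case. Control 2 and labelled mutants 3 and 4 were together the 3 highest of the 8 libraries for the same 8 genes (Il25 by 1 or 2 counts), and for 6 of the 7 tested. Of all 17085 genes tested at 3 months, 28.0% had control 2 as the highest control, 3425 genes had labelled mutants 3 and 4 above 1 and 2, and 1.60% had these 3 libraries at the top. The orders were chosen after the values were seen and are a description with no test. Summed markers of other cell types differed between the same libraries: smooth muscle, enteric neuron, Paneth, M cell and eosinophil markers were higher in labelled mutants 3 and 4 than in 1 and 2, and enterocyte and platelet with red cell markers lower. The 7 smooth muscle markers summed to 1751, 1720, 3103 and 2369 CPM in labelled mutants 1 to 4 and to 1575 to 1909 CPM in the controls, where control 2 (1702 CPM) was not the highest. The 7 enterocyte markers summed to 27350, 22100, 18100 and 18880 CPM in labelled mutants 1 to 4 and to 10400 CPM in control 2, the lowest of the controls (up to 14350 CPM). The 6 Paneth cell markers summed to 6443, 7257, 10240 and 9923 CPM in labelled mutants 1 to 4 and to 7662 CPM in control 2, again the lowest of the controls (up to 11480 CPM). The 6 eosinophil markers summed to 7.67, 8.08, 12.14 and 17.75 CPM in labelled mutants 1 to 4. Control 2 (9.39 CPM) was the highest control for this sum. It includes Siglecf, a gene of nearly the same pattern as the tuft genes, at 1.44, 1.05, 4.63 and 7.33 CPM in labelled mutants 1 to 4. The 9 platelet and red cell markers summed to 49.9, 57.3, 48.8 and 42.9 CPM there, and control 2 (58.6 CPM) was the lowest control. The part of these cell types in the tuft values was not tested.

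The spread inside the 3-month groups was wide beside that of other genes. For the 7 genes other than Il25 and Ptgs1, the SD of log2 CPM was 0.34 to 1.08 in the 3-month controls, at the 83.5th to 98.7th percentile of all genes tested, and 0.59 to 1.75 in the labelled mutants, at the 93.4th to 99.5th percentile. The medians over all genes tested were 0.143 and 0.175. In the 8-day groups the same genes had SDs of 0.18 to 0.30 and 0.11 to 0.37. The SD that counting alone would give in the 3-month labelled mutants was 0.120 for Trpm5, 0.0718 for Dclk1 and 0.280 for Sh2d6, far below the observed 1.49, 0.78 and 1.75. For Gfi1b, with 2 to 12 counts in each of these libraries, it was 0.782. The observed SD was 0.98 with a prior count of 2 on the log scale and 1.265 with 0.5. In the 3-month controls the counting SD of Gfi1b was 1.001, between the observed 0.85 and 1.164 of these settings, and that of Pou2f3 was 0.466 against 0.78 and 0.87. Ptgs1 had SDs of 0.101 and 0.225 at 3 months, at the 34.1st and 61.4th percentile.

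**Figure D3:**
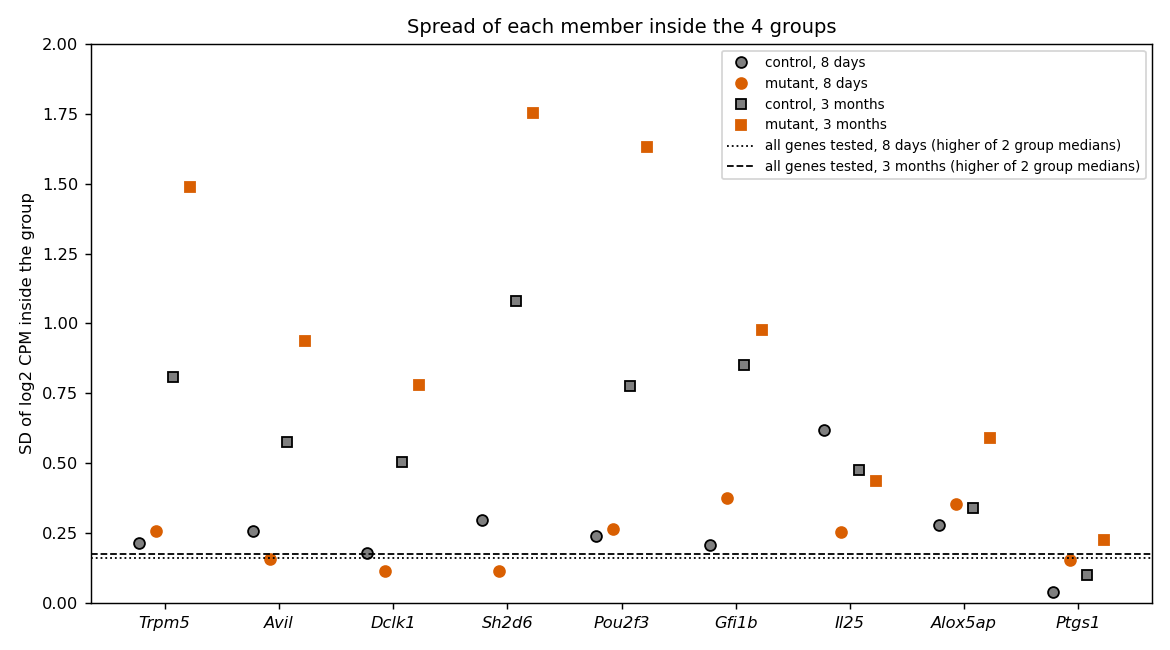
SD of log2 CPM inside each of the 4 groups for the 9 genes, with dashed and dotted lines at the medians over all genes tested. For Trpm5, Avil, Dclk1, Sh2d6, Pou2f3, Gfi1b and Alox5ap the 3-month labelled mutants (0.59 to 1.75) lie above the 8-day groups, while for Ptgs1 the 4 values stay between 0.0388 and 0.225.

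Per length of exon, Ptgs1 had the highest level of the 9 genes in the 8-day controls, at 12.8 ± 0.343 CPM per kilobase (SD, n = 3). Avil (4.55 ± 0.848), Sh2d6 (3.93 ± 0.789) and Trpm5 (3.83 ± 0.596 CPM per kilobase) followed, at levels that did not differ beyond their spread. Alox5ap stood at 2.55 ± 0.484 and Dclk1 at 2.099 ± 0.271 CPM per kilobase, again within each other's spread. Pou2f3 (0.721 ± 0.117), Gfi1b (0.264 ± 0.0428) and Il25 (0.156 ± 0.0829 CPM per kilobase) were the lowest, and the last 2 overlapped. The exon length used for Dclk1 (15296 bases) joins all its isoforms, which lowers its value if only shorter ones are made. In the 3-month controls Ptgs1 stood at 10.6 ± 0.758 CPM per kilobase against 0.539 ± 0.516 for Sh2d6 and 0.998 ± 0.557 for Trpm5 (SD, n = 4).

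All 3-month libraries were below all 8-day libraries for 5 of the 9 genes (Trpm5, Dclk1, Sh2d6, Gfi1b and Il25), and for 4 of the 8 in the joint fit, against 9.54% of all genes in it. On the scale that joins the cohorts Trpm5 ran from 21.2 to 30.6 CPM at 8 days and from 2.174 to 18.1 CPM at 3 months, and Sh2d6 from 5.30 to 8.07 and from 0.320 to 4.73 CPM. Even the high libraries of 3 months thus stayed below the lowest 8-day library for these genes. For Avil, Pou2f3, Alox5ap and Ptgs1 the cohorts overlapped. The cohorts came in separate tables, and their comparison is no test of time.

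To name the genes of nearest pattern, every gene of the joint fit was correlated with the mean log2 CPM of Trpm5, Dclk1, Pou2f3, Avil and Sh2d6 over the 15 libraries, after removal of the 4 group means. The libraries share the depth and composition of each animal's RNA, and the correlations are descriptive. Dclk1 (r = 0.990), Sh2d6 (0.987), Pou2f3 (0.979), Avil (0.959) and Trpm5 (0.957) are in the mean itself. Gfi1b had r = 0.886 (rank 21 of 17959) and Alox5ap r = 0.810 (rank 44). Ptgs1 had r = 0.085 (rank 7731). Within the 3-month cohort the median r was 0.691 for the 7 smooth muscle markers, 0.556 for the 6 Paneth cell markers, 0.530 for the 8 enteric neuron markers and -0.652 for the 7 enterocyte markers.

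The 10 nearest genes outside the members were Sh2d7, Strip2, Siglecf, Ly6g6f, Rgs13, Itprid1, Rgs22, Matk, Bmx and Dgki, with r from 0.924 to 0.981 (0.931 to 0.982 without the library of the highest mean, 8-day control 3). Of these, 4 (Rgs13, Itprid1 under its older symbol Ccdc129, Matk and Bmx) are on the lists of tuft genes used here. Siglecf, a sialic acid-binding receptor best known from eosinophils, was on the eosinophil list. It stood at 0.939, 2.45, 1.32 and 1.16 CPM in the 3-month controls and 1.44, 1.05, 4.63 and 7.33 CPM in the labelled mutants. Of the other 5 eosinophil markers, r within the 3-month cohort was 0.617 for Ccr3, 0.417 for Prg2, 0.318 for Ear2, -0.204 for Epx and -0.407 for Il5ra, and their part in the Siglecf values was not tested. Ccr3 was the one called at 3 months (1.38, SE 0.36, adjusted p = 0.0449, edgeR quasi-likelihood test), in 7 of 16 alternative settings. Sh2d7, a relative of Sh2d6, stood at 0.730, 3.28, 0.699 and 1.09 CPM in the controls and 1.64, 0.693, 8.42 and 11.6 CPM in the labelled mutants. Within the 3-month cohort the r of the 10 genes was 0.946 to 0.987, and within the 8-day cohort, where the range was small, 0.410 to 0.907. At 3 months 8 of the 10 passed the filter. The lowest adjusted p of the 10 genes in any comparison was that of Dgki at 3 months (log2 fold change 1.21, SE 0.38, adjusted p = 0.0746, edgeR quasi-likelihood test).

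**Figure D4:**
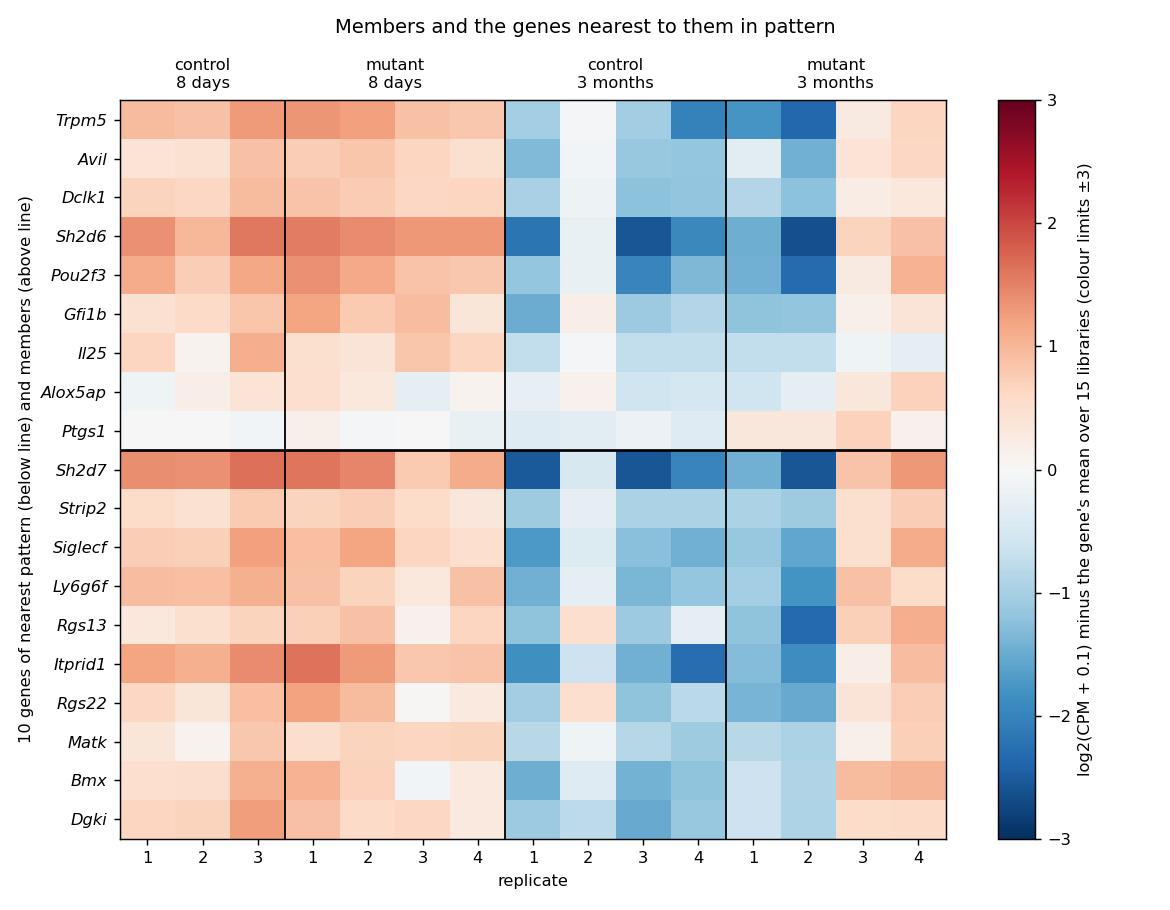
Log2(CPM + 0.1) of the 9 genes (above the line) and the 10 genes of nearest pattern (below it) in the 15 libraries, as the difference from each gene's mean, with colour limits at ±3 and the cohorts scaled separately. Control 2 and labelled mutants 3 and 4 of 3 months are paler or redder than the other libraries of their group in every line of the map except that of Ptgs1.

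Of 43 other genes of tuft cells in 4 lists (sensing, effectors, regulators, structure), 39 were matched. At 8 days 0 of 36 tested were called by the edgeR quasi-likelihood test, 9 had an unadjusted p under 0.05 (8.80% of all 17493 genes did), DESeq2 called 1 (Lrmp, which B cells also express) and limma-voom 0. The 7 B cell markers summed to 15.7 to 47.1 CPM in the 8-day controls and 18.6 to 263 CPM in the labelled mutants, and their part in the Lrmp value was not tested. Without labelled mutant 1, the edgeR count was 3. At 3 months 6 of 34 were called, 3 higher (4.96% of all genes tested were) and 3 lower (4.32%). Their median log2 fold change was 0.25, beside 0.0077 over all genes.

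Of the effectors, 2 of 7 tested were higher at 3 months, beside 4.96% of all genes tested. Both act in leukotriene synthesis, and the list had a median log2 fold change of 0.73. Alox5 (5-lipoxygenase, the partner of Alox5ap) stood at 1.63, 2.42, 1.98 and 2.25 CPM in the controls and 3.11, 3.10, 7.005 and 6.37 CPM in the labelled mutants. Ltc4s (leukotriene C4 synthase) stood at 1.22, 1.26, 1.28 and 1.23 CPM in the controls and 1.83, 1.62, 2.29 and 2.56 CPM in the labelled mutants. In both genes every labelled mutant was above every control, an order that 9.70% of all genes tested had. Labelled mutants 3 and 4 were the highest in both. The log2 fold changes were 1.24 (SE 0.30, adjusted p = 0.0394) and 0.73 (SE 0.17, adjusted p = 0.0367) by the edgeR quasi-likelihood test, and each was higher in 4 of 4. Of 16 alternative settings, Alox5 was called in 8 and Ltc4s in 7. Both enzymes are also made by macrophages and mast cells. The macrophage list (9 genes) summed to 292 to 360 CPM in the controls and 318 to 450 CPM in the labelled mutants, and the mast cell list to 34.2 to 59.6 and 49.5 to 80.2 CPM, with the tryptase gene Tpsab1 at 0 in every library. The part of these cells in the Alox5, Ltc4s, Alox5ap and Ptgs1 values was not tested. The other effectors, among them Hpgds (prostaglandin D synthase, 6.82 to 9.02 CPM in the controls and 8.12 to 12.4 CPM in the labelled mutants) and Chat (choline acetyltransferase, 0.278 to 0.829 and 0.514 to 1.41 CPM), did not pass the test.

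Of the sensing genes 0 of 8 tested were called at 3 months by the edgeR quasi-likelihood test, and 1 had an unadjusted p under 0.05, where 29.4% of all genes did. That gene was Plcg2 (phospholipase C gamma 2), at 58.9 to 81.7 CPM in the controls and 48.7 to 63.3 CPM in the labelled mutants (-0.37 on the log2 scale, SE 0.13, adjusted p = 0.0970, edgeR quasi-likelihood test). The estimate was negative for Itpr2 (an inositol trisphosphate receptor) as well, at -0.19, and positive for the other 6. The next 3 genes were chosen after their values were seen. Gnat3, the taste G protein gustducin, stood at 0.139, 0.368, 0 and 0.246 CPM in the controls and 0.449, 0.099, 0.559 and 0.996 CPM in the labelled mutants. Ffar3, a receptor of short-chain fatty acids, stood at 0.452, 0.430, 0.272 and 0.528 CPM in the controls and 0.160, 0.165, 1.22 and 1.21 CPM in the labelled mutants. Labelled mutants 1 and 2 were below every control for Ffar3, and 3 and 4 above every control. Sucnr1, the receptor of succinate, stood at 0.116 to 0.522 CPM in the controls and 0.225, 0.198, 0.826 and 1.138 CPM in the labelled mutants, of which the first pair lay among the controls.

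Of the regulators 1 of 5 tested was called at 3 months, beside 9.28% of all genes tested. This was Sox9, a factor of crypt progenitors as well as tuft and Paneth cells. It was higher by 0.55 on the log2 scale (SE 0.14, adjusted p = 0.0411, edgeR quasi-likelihood test), with controls at 11.4 to 14.8 CPM and labelled mutants at 14.5 to 21.2 CPM, where 3 of 4 were above every control. Hmx2, a homeobox gene of tuft cells, was not tested at 3 months and stood at 0.0348 to 0.0921 CPM in the controls and 0.128, 0.0330, 0.533 and 0.711 CPM in the labelled mutants.

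Of the structural and signalling genes 3 of 14 tested were lower at 3 months and 0 higher, beside 4.32% and 4.96% of all genes tested. Vav1 and Rac2, a signalling pair of leukocytes that tuft cells also use, stood at 22.8 to 33.6 CPM in the controls against 16.3 to 21.7 CPM in the labelled mutants, and at 25.8 to 34.7 CPM against 12.4 to 24.6 CPM. Their log2 fold changes were -0.57 (SE 0.15, adjusted p = 0.0442) and -0.79 (SE 0.20, adjusted p = 0.0449) by the edgeR quasi-likelihood test, lower in 4 of 4. Nebl, a member of the nebulin family of actin-binding proteins, fell by 0.95 on the log2 scale (SE 0.24, adjusted p = 0.0443, edgeR quasi-likelihood test), with 3 of 4 labelled mutants below every control. The 7 B cell markers summed to 92.6 to 208 CPM in the 3-month controls and to 12.1 to 136 CPM in the labelled mutants, with a median log2 fold change of -1.31 (0 of 7 called by the edgeR quasi-likelihood test, 2 with an unadjusted p under 0.05, a share near the 29.4% of all genes). Their part in the Vav1 and Rac2 values was not tested. The count of other tuft genes called at 3 months, 6, was 0 without control 1, 2 or 3 or without labelled mutant 3, and 2 without control 4 or labelled mutant 1. It was 3 without labelled mutant 2 (Alox5, Ltc4s and Il17rb) and 4 without labelled mutant 4 (Spib, Vav1, Ptpn6 and Rac2), and DESeq2 called 11. Each of the 6 calls was thus lost without at least 1 animal, whereas that of Ptgs1 held without any 1.

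In the type 2 circuit that tuft cells act on, the cytokine genes Il5, Il9 and Il13 were near the floor. Il5 and Il9 were at 0 to 0.066 CPM in every library and Il13 at 0 to 0.178 CPM. Of 11 tested genes 1 was called at 3 months, a share near the 9.28% of all genes: Nmur1, the neuromedin U receptor of type 2 innate lymphoid cells. It stood at 0.834, 0.982, 0.893 and 0.668 CPM in the controls and 1.57, 2.21, 2.48 and 3.20 CPM in the labelled mutants, 1.48 higher on the log2 scale (SE 0.24, adjusted p = 0.0117, edgeR quasi-likelihood test, higher in 4 of 4). At 8 days it stood at 1.38 to 1.54 CPM in the controls and 1.23 to 1.71 CPM in the labelled mutants. Within the 3-month cohort control 2 was the highest control and labelled mutants 3 and 4 were above 1 and 2, as for 8 of the 9 tuft genes, but without overlap between the groups. With the Rfx6f/f controls alone the Nmur1 call was lost (1.65, adjusted p = 0.126, edgeR quasi-likelihood test, 2 controls), and it held in the other 15 of 16 alternative settings. Retnlb, a goblet cell gene induced in type 2 responses, stood at 28.4 CPM in labelled mutant 3 and at 0.492 to 4.36 CPM in the other 7 libraries of 3 months. It did not pass the test.

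The genes lie on chromosomes 7 (Trpm5), 3 (Dclk1), 9 (Pou2f3), 14 (Il25), 2 (Gfi1b and Ptgs1), 10 (Avil), 6 (Sh2d6) and 5 (Alox5ap). Exons of Trpm5, Avil, Dclk1, Ptgs1 and Alox5ap overlap a gene on the other strand in the GENCODE M21 annotation (Tssc4, Tsfm, Gm42609 with Gm21954, Gm43621 and Gm19719). Whether reads were counted by strand is not given in the sources used here, so reads of these pairs may not be separate. Pou2f3, Il25, Gfi1b and Sh2d6 have no such overlap.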

How the data were processed

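The deposited tables, 1 per cohort, give unnormalised read counts, with a row for each Ensembl gene and a column for each animal. The submitters' processing notes name bcl2fastq 2.17.1.14, Bowtie 1.0.0, TopHat2 2.0.10, Bowtie2 2.1.0, HTSeq 0.6.1 and the build mm9, with no roles. Annotation release and strand setting are not given in the sources used here. Ribosomal RNA was depleted, per the labels' protocols, although the molecule field reads polyA RNA. Columns were matched to samples by title, and 0 were left out.

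A reference list of gene names gave symbols to 32897 of 37620 identifiers (87.45%). GENCODE M21 (GRCm38) gave chromosomes, exon lengths and exon overlaps. Promoters came from the RefSeq table of GRCm38.p6.

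Each cohort was fitted alone with edgeR 4.0.16 (R 4.3.3), quasi-likelihood F test (legacy fit), two-sided, after filterByExpr (minimum count 10) and TMM scaling. Calls were made where the p adjusted by Benjamini-Hochberg over all genes tested was under 0.05. The difference of effects was the interaction in a fit of all 15 libraries, and the 2 genotypes among the controls were set against each other with all 8 libraries of 3 months in 3 groups. The replicate numbers follow deposit order and pair no samples. SDs and correlations used log2 CPM with a prior count of 2. Scripts were tested on simulated data.

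The members and gene lists were chosen with earlier results of these data known. Genes were named if they were members, passed in a list, were among the highest of a list, or were among the 10 of nearest pattern. The orders of libraries, the promoter motifs, Hmx2, Ffar3, Sucnr1, Gnat3, Chat, Epx, Il5, Il9, Il13, Retnlb, Tpsab1 and Gip were chosen after values were seen. Alternatives were DESeq2 1.42.0, limma-voom (limma 3.58.1), RLE scaling, library size without the 20 most counted genes, no filter, 10 counts in every sample, a joint fit, the Rfx6f/f controls alone, and leaving out each library. Figures used matplotlib 3.10.9.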

Additional observations from a re-analysis of the deposited data

Results flagged for a closer look

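Of 48 checks on 16 genes in the groups of 4 libraries, 3 found 1 library standing apart from the rest of its group, where chance gives about 1 in 20, or 2.4. All 3 concerned control 2 (Rfx6f/+) of 3 months. Avil stood there at 9.64 CPM, while the other 3 controls were at 3.998 to 4.58 CPM. Sh2d6 stood at 2.21 CPM, while the others were at 0.349 to 0.598 CPM. Il25 stood at 0.0614 CPM, from 2 counts, while the others had 0 counts. With 0 in all the others, any count in a single library is flagged by this check. The checks are also not independent, since Avil and Sh2d6 rise and fall together, so 2.4 is no exact expectation. Labelled mutants 3 and 4, which were high together, were not picked out by this check.

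The effect of the label on Nmur1 differed between the cohorts, by 1.46 on the log2 scale (SE 0.30, adjusted p = 0.0473, edgeR quasi-likelihood test of the difference), higher in 4 of 4 labelled mutants at 3 months and overlapping the controls at 8 days. The difference was called in 9 of 22 alternative settings, with adjusted p from 0.00251 to 0.156.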

How the results depend on the processing

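At 3 months the 6 tested members other than Ptgs1 were called in 0 of their alternative settings and had a positive estimate in all of them, with the lowest adjusted p at 0.0823 (Avil). Counts of calls that moved were these. With Rfx6f/f controls only, 0 members and 0 other tuft genes were called at 3 months. DESeq2 called 11 other tuft genes at 3 months and 1 at 8 days. The difference of effects had 1 member called, Ptgs1, with DESeq2, RLE scaling, no filter and 10 counts in every sample. With each library left out in turn, other tuft genes called ranged from 0 to 3 at 8 days (3 without labelled mutant 1) and from 0 to 4 at 3 months, and members called in the difference of effects from 0 to 1 (1 without labelled mutant 2 or 4 of 3 months or labelled mutant 1 of 8 days).

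Some estimates changed sign. At 8 days Ptgs1 stood at -0.00022 with DESeq2, -0.00078 with RLE scaling and -0.00062 without a filter, and Alox5ap at -0.021 with limma-voom. Leaving out each library at 8 days gave ranges of -0.070 to 0.16 for Trpm5, -0.095 to 0.078 for Dclk1, -0.083 to 0.13 for Pou2f3, -0.0094 to 0.24 for Avil, -0.084 to 0.20 for Sh2d6, -0.063 to 0.061 for Ptgs1 and -0.13 to 0.15 for Alox5ap. It gave -0.17 to 1.25 for the difference of effects of Gfi1b. For the control genotypes it gave -0.16 to 0.94 for Dclk1, -0.96 to 1.22 for Pou2f3, -0.62 to 2.04 for Sh2d6 and -0.23 to 0.54 for Alox5ap, the lowest value without control 2 in each. The cause of these changes was not tested. Over all genes, the 16 called at 8 days became 178 with DESeq2, 27 without a filter, 25 in the joint fit and 8 to 200 with 1 library left out. The 1586 of 3 months became 2969 with DESeq2, 36 with Rfx6f/f controls only and 391 to 1521 with 1 library left out. The 141 of the difference became 1001 with DESeq2, 41 with limma-voom, 223 without a filter, 248 with 10 counts in every sample, 5 with Rfx6f/f controls only and 10 to 749 with 1 library left out. Depth limits Il25 and Gfi1b, which had 0 to 2 and 1 to 12 counts per library at 3 months. No paired analysis was possible because the labels give the groups no shared replicate numbers.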

Other observations

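The genes nearest to Ptgs1 in pattern were not on the lists of tuft genes used here. Ranked in the same way, a choice made after its values were seen, the nearest were Abca9 (r = 0.916), Abi2 (0.915), Hip1 (0.904), Plcb1 (0.899), Tenm3 (0.878) and Vwf (0.874). By list the median r with Ptgs1 was 0.452 for macrophage, 0.363 for enteric neuron, 0.323 for mast cell and 0.31 for Paneth cell markers. It was 0.113 for platelet and red cell markers and 0.114 for the tuft members. For the other tuft lists it was 0.272 (effectors), 0.0923 (regulators), -0.0913 (structure) and -0.212 (sensing). The value farthest from 0 was -0.708 for B cell markers, followed on the negative side by -0.383 for M cell markers. These are correlations over 15 libraries with group means removed and carry no test.

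At 3 months 9.28% of all genes were called. Of 9 macrophage markers 1 was called, Csf1r, a growth factor receptor (log2 fold change 0.60, SE 0.12, adjusted p = 0.0212, edgeR quasi-likelihood test, higher in 4 of 4), while 5 estimates were positive and 4 negative, with a median of 0.059. Of 6 eosinophil markers 1 was called, the eotaxin receptor Ccr3 (1.38, SE 0.36, adjusted p = 0.0449, same edgeR test, higher in 4 of 4), in 7 of 16 alternative settings and not with limma-voom, while 4 estimates were negative, with a median of -0.078. Of 6 tested platelet and red cell markers Pf4, a platelet chemokine that macrophages also make, was higher (1.19, SE 0.28, adjusted p = 0.0366, same edgeR test, higher in 4 of 4). The red cell genes Alas2, Hba-a1 and Hbb-bs fell, by 1.02, 0.97 and 1.15 in log2 units (adjusted p from 0.027 to 0.046, same edgeR test, lower in 4 of 4).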
